A study of Mus musculus with 10 samples.

Results

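Cxcl13, Ccl8 and Cxcl9, 3 genes for secreted chemokine ligands, were examined in mouse hearts by the signal of 1 mRNA probe each, among 22359 mRNA probes on the array. They were chosen because these values had differed between aged and young hearts, so the age difference of each gene is given below as a description, with its spread and without a test. Signal was higher in aged hearts for Cxcl13 and Ccl8, by log2 differences of 4.53 (SE 1.41) and 2.99 (SE 0.53), and lower for Cxcl9, by -1.55 (SE 0.42), with n = 5 hearts per age. The 3 genes differed in how the single hearts behaved: Ccl8 separated the ages, 1 young heart had a Cxcl13 signal above that of 4 of 5 aged hearts, and the Cxcl9 signal of 1 aged heart lay inside the young range.

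The hearts came from male C57BL/6 wild-type mice, 5 aged 3 months (young, 3m group) and 5 aged 20 months (aged, 20m group), with 1 array per mouse and no treatment named in the labels. Mice of both ages were housed singly, and 1 supplier provided the young animals and another the aged ones, which makes age and supplier inseparable here. RNA was taken from snap-frozen myocardium as a whole, and in such bulk tissue a change in the number of cells of a type and a change in RNA per cell cannot be told apart. None of the 9 cardiomyocyte markers listed had a named probe, so the tissue label was not checked with them. Hspb7, a small heat shock protein of heart and skeletal muscle with replicated spots on the array, gave log2 intensities of 11.86 to 12.68 in young and 11.97 to 12.55 in aged hearts.

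Chemokine ligands are small secreted proteins that draw leukocytes by binding receptors on their surface. Cxcl13 is the ligand of Cxcr5 and guides B cells and follicular helper T cells into lymphoid follicles. It is made by follicular stromal cells and by some macrophages, and lymphotoxin signalling maintains it in lymphoid tissue. Ccl8 is a CC chemokine that attracts monocytes and T cells, and in mice resident macrophages are a known source. Cxcl9 is induced by interferon gamma and recruits Cxcr3-bearing T and NK cells.

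Each value below rests on the hybridisation to a single 60-base probe, so the sequences are shown to make plain which piece of the transcript was read. For Cxcl13 and Ccl8, 30 bases around the AATAAA hexamer, the usual polyadenylation signal, are given with the hexamer in capitals. They are bases 31 to 60 of the Cxcl13 probe and bases 18 to 47 of the Ccl8 probe. The Cxcl9 probe holds no AATAAA and is given whole.
Cxcl13: ttcatctggtgtcattcAATAAAtgtaatc
Ccl8: atgaacaactgaAATAAAagcttacactga
Cxcl9: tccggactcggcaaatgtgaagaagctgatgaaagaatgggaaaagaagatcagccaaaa

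The Cxcl13 gene (ENSMUSG00000023078) lies on the plus strand at chr5:95956939-95961068 of GRCm38. Cxcl9 (ENSMUSG00000029417) lies on the minus strand of the same chromosome at chr5:92321331-92328079, 3.63 megabases from Cxcl13. Ccl8 (ENSMUSG00000009185) lies on the plus strand at chr11:82115185-82116799. The hexamer was present in 94 of the 735 mRNA probes with a gene name, 12.8%. By direction it was in 13 of the 45 named probes with higher signal in aged hearts (28.9%) and in 81 of the 690 with lower signal (11.7%). The 2 ligands with higher signal in aged hearts were thus read through an AATAAA-bearing stretch and Cxcl9 through a stretch without one, and the named probes had themselves been listed for their age difference.

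Upstream of their starts, the 3 genes held the same searched motifs within 250 bases, and the place of TATAAA differed. The last 60 bases before the gene start (RefSeq, GRCm38.p6, 5' to 3' on the gene's strand) are shown because Cxcl13 and Ccl8, both higher in aged hearts, carry a TATAAA here, in capitals, and Cxcl9 does not. They lie at chr5:95956879-95956938, chr11:82115125-82115184 and chr5:92328080-92328139.
Cxcl13 upstream: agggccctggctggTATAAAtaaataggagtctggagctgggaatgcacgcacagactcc
Ccl8 upstream: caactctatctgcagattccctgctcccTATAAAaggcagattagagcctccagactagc
Cxcl9 upstream: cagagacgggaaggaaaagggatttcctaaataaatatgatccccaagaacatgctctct

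TATAAA on the gene's strand began 46 bases before the start of Cxcl13 and 32 bases before that of Ccl8. For Cxcl9 the TATAAA began 195 bases before the start. Of 32851 RefSeq promoters, 7.59% held TATAAA on the gene's strand within 250 bases. Searched on both strands of the same 250 bases, none of the 3 genes held a kappa B motif (GGG and TTCC set 3 bases apart, in 4.65% of promoters), an interferon response motif (GAAA and GAAA set 2 bases apart, 2.98%) or a GAS motif (TTCNNNGAA, 7.02%). The bases shown for Cxcl9 hold gggatttcc, where GGG and TTCC lie 2 bases apart, a spacing that was not searched. The absence of the searched letters from this window says nothing further about the factors that bind such motifs.

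Cxcl13 log2 normalized intensity was 5.25, 4.49, 3.46, 3.42 and 11.35 in young hearts 1 to 5, a mean of 5.59 ± 3.31 (SD, n = 5). In aged hearts 1 to 5 it was 9.84, 8.05, 11.27, 8.16 and 13.28, a mean of 10.12 ± 2.21 (SD, n = 5). Young heart 5 lay above aged hearts 1 to 4, so the groups overlapped, while the other 4 young hearts lay below every aged heart. Before scaling between arrays, the intensity of young heart 5 was 2836 and those of the other young hearts were 14.7 to 32.2. Aged hearts covered 228 to 10351 on this scale, a 45.5-fold range. The probe was well above background in all 10 hearts, so the low young values are measured rather than bounds.

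The 4.53 log2 difference corresponds to 23.0-fold, and it depended on young heart 5. Without that heart it was 5.97 (SE 0.92), and over the single hearts left out in turn it lay between 3.73 and 5.97. Normexp background correction, which raises dim signals toward an offset, gave 2.93 (SE 1.21). On the slide that held both age groups, inferred from scan time and without young hearts 1 and 2, it was 4.04 (SE 1.84). The same hearts gave 2.80 (SE 0.69) for Ccl8 and -1.59 (SE 0.54) for Cxcl9.

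Ccl8 log2 normalized intensity was 9.23, 8.96, 9.17, 9.84 and 9.74 in young hearts 1 to 5, a mean of 9.39 ± 0.38 (SD, n = 5). In aged hearts 1 to 5 it was 12.37, 10.23, 12.09, 13.16 and 14.04, a mean of 12.38 ± 1.42 (SD, n = 5). The 2 ages did not overlap, and the narrowest gap lay between aged heart 2 and young heart 4. Groups that did not overlap, were found for 24.4% of the 16720 detected mRNA probes, and for 8.28% with aged hearts higher. The difference of 2.99 corresponds to 7.95-fold. Unscaled, the 5 aged hearts ranged from 1028 to 17925 (17.4-fold) and the 5 young hearts from 454 to 1333 (2.93-fold). With single hearts left out the difference lay between 2.58 and 3.53.

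Cxcl9 log2 normalized intensity was 8.11, 8.31, 8.27, 8.56 and 8.09 in young hearts 1 to 5, a mean of 8.27 ± 0.19 (SD, n = 5). In aged hearts 1 to 5 it was 5.94, 5.70, 6.16, 8.26 and 7.54, a mean of 6.72 ± 1.12 (SD, n = 5). Aged heart 4 lay within the young range, aged heart 5 lay below it, and aged hearts 1 to 3 were lower still. The difference of -1.55 corresponds to a 2.92-fold lower signal in aged hearts. With single hearts left out it lay between -1.93 and -1.29. It was -1.93 (SE 0.32) without aged heart 4.

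All 3 probes passed the limits used for all mRNA probes, an adjusted p under 0.05 in limma and a log2 difference of at least 1. These limits were passed by 13.7% of the 16720 detected mRNA probes, 4.01% higher and 9.65% lower in aged hearts. Nothing is read from the call of the 3 probes, since the same difference chose them. Ccl8 kept the call in all 22 alternatives. Cxcl13 kept it in 10 of 22, and lost it with normexp, a floor of 16, the slide as a block or alone, either GAPDH covariate and 6 of 10 arrays left out. Cxcl9 kept it in 19 of 22, and lost it on the slide with both ages alone and with either GAPDH covariate.

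**Figure D1:**
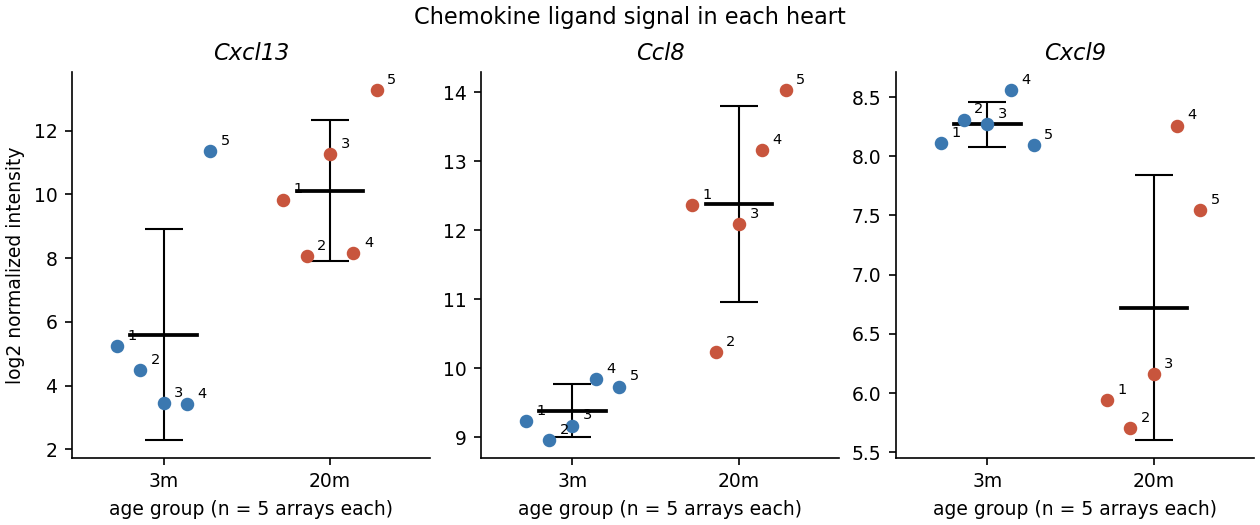
Log2 normalized intensity of Cxcl13, Ccl8 and Cxcl9 in each 3m and 20m heart. Points are single hearts numbered by replicate, thick lines are group means and bars are SD (n = 5). The y axes differ and do not start at 0. Young heart 5 stands at 11.35 for Cxcl13, and aged heart 4 at 8.26 for Cxcl9 lies within the young range.

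The signals of the members also varied among hearts of 1 age, a property that the age difference does not fix. Among the 16720 detected mRNA probes, Cxcl13 had the widest SD of all in young hearts and the second widest in aged hearts. The median SD over these probes was 0.321 in young and 0.287 in aged hearts. Ccl8 was ordinary among young hearts, where 63.9% of probes had a smaller SD, and ranked 39 from the widest among aged hearts. Cxcl9 varied less than most in young hearts, where 17.5% of probes had a smaller SD, and ranked 151 from the widest in aged hearts. Only for Cxcl13 was the SD of young hearts larger than that of aged hearts, through heart 5.

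**Figure D2:**
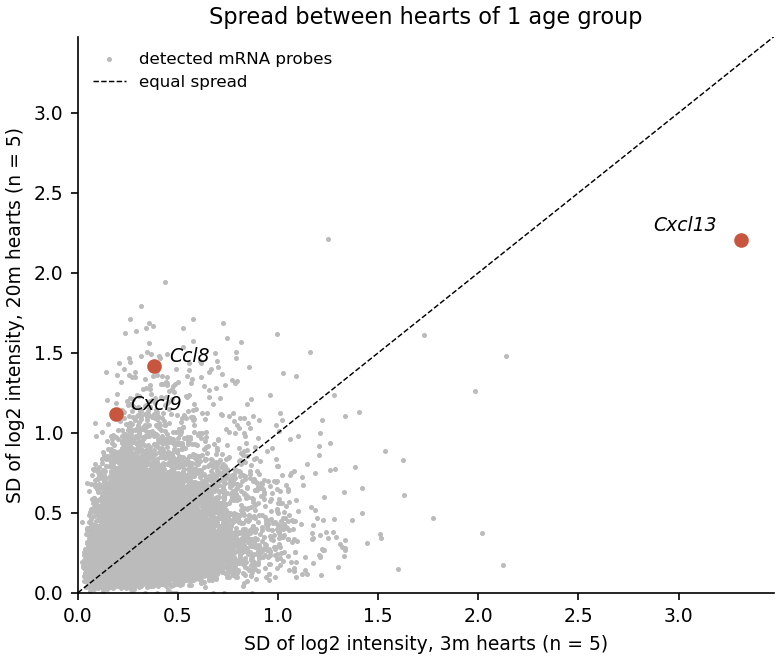
SD of log2 intensity across the 5 young hearts (x axis) and the 5 aged hearts (y axis) for each of the 16720 detected mRNA probes, with the chemokine ligands in colour. Cxcl13 lies farthest to the right at 3.31, and Ccl8 and Cxcl9 lie above the dashed line of equal spread.

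The heart-to-heart deviations of the 3 ligands did not run together as a set. With each heart taken as its deviation from the mean of its age, over 10 hearts, r was 0.75 between Ccl8 and Cxcl9, 0.42 between Cxcl13 and Ccl8 and -0.02 between Cxcl13 and Cxcl9. These values describe 10 hearts and carry no test. The deviations were not scaled to the spread of each age. For Ccl8 and Cxcl9, r thus rested mostly on aged hearts (SD 1.42 and 1.12, against 0.38 and 0.19 in young hearts). For Cxcl13, young heart 5 lay farthest from its age mean, so the r values of Cxcl13 depend much on that heart. In aged hearts, numbers 4 and 5 had the highest signal for both Ccl8 and Cxcl9, and numbers 3 and 5 the highest for Cxcl13.

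By the same measure, the named probes most like each ligand were taken from 734 compared. For Cxcl13 these were Il3ra, the alpha chain of the interleukin-3 receptor (r = 0.80), the transporter gene Slc41a3 (r = 0.67) and S100a8, a calcium-binding protein of neutrophils and monocytes (r = 0.66). Slc41a3 was well above background in 1 of 5 aged hearts and S100a8 in 1 of 5 young hearts. Part of each of these r values thus rests on signals near background. Il3ra was 3.65, 3.93, 2.73, 3.15 and 4.99 in young hearts and 7.20, 7.11, 7.29, 6.65 and 7.08 in aged hearts. Young heart 5 was thus the highest young heart for Il3ra as well as for Cxcl13, but Il3ra in that heart stayed below every aged heart. For Ccl8 the most alike were Eps15l1, an endocytic adaptor (r = 0.82), the aggrecanase gene Adamts5 (r = 0.81) and Ccdc8 (r = 0.79). All 3 had lower signal in aged hearts, as did 690 of the 735 named probes, so nothing is read from their direction. Over all 16701 probes with values in every heart, 8 had an r with Cxcl13 at least that of Il3ra, and 79 an r with Ccl8 at least that of Eps15l1, most of them without a name here.

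For Cxcl9 the most alike were Lrrc55 (r = 0.99), the membrane-contact protein gene Vapb (r = 0.95) and the homeobox gene Hoxa4 (r = 0.94). Lrrc55, an auxiliary subunit of large-conductance potassium channels, was 8.17, 8.54, 8.53, 8.45 and 8.11 in young hearts and 5.53, 4.89, 5.38, 8.24 and 7.33 in aged hearts. No other of the 16701 probes had an r with Cxcl9 as high as that of Lrrc55. Aged hearts 4 and 5 were again the highest aged hearts, so a pattern like that of Cxcl9 was found in a gene of quite another role.

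Cxcl9 belongs to the interferon-induced genes, and 15 of the 69 genes on the list of interferon-stimulated genes had a named probe. All 15 passed the limits with lower signal in aged hearts, against 9.65% of detected mRNA probes. Nearly all gene names at hand came from a list of lower probes, which fixed this direction, and the other genes of the list were not analysed here. Rsad2, the antiviral protein viperin, was 8.25, 8.81, 7.78, 8.28 and 8.26 in young hearts and 6.40, 6.30, 6.28, 7.62 and 6.76 in aged hearts. Herc6, a ligase for the ubiquitin-like protein Isg15, was 7.39, 8.07, 7.06, 7.73 and 8.30 in young and 5.66, 5.82, 5.12, 6.76 and 6.49 in aged hearts. As for Cxcl9, aged hearts 4 and 5 held the highest aged values of both genes. The exceptions among the 15 were Trim34b and Rtp4, highest in aged heart 1 (6.33 and 4.55), and Oas1g and Cmpk2. For Oas1g and Cmpk2, aged heart 5 did not exceed aged heart 1.

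Over the 15 probes, the median difference from the mean of young hearts was -1.80, -2.14, -2.18, -0.95 and -1.33 in aged hearts 1 to 5. As for Cxcl9, aged hearts 4 and 5 were nearest to the young level. The r with Cxcl9 had a median of 0.66 and ran from 0.15 for Trim34b to 0.94 for Sp100, a nuclear body protein. The median was 0.32 over the 1611 compared probes called lower in aged hearts, and -0.04 over all 16701 probes. Ifit1, Ifit3, Ifit3b, Sp100, Rsad2, Herc6, Ifi44, Trim34a, Trim34b and Gbp8 had age differences between -1.83 and -1.55. Samd9l and Rtp4 were well above background in 3 of 5 aged hearts, and Oas1g in 1. Rnf213 and Cmpk2 were not well above background in any aged heart, so for them no fold is given.

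Among the 18 genes of the interferon receptor and signalling list, Ifngr2 alone had a named probe. Ifngr2, a chain of the receptor for the interferon that induces Cxcl9, was 8.22, 8.30, 7.76, 7.69 and 7.96 in young and 6.80, 6.51, 6.02, 6.31 and 6.75 in aged hearts. The difference was -1.51 (SE 0.19), and its aged hearts 4 and 5 did not stand apart from the others. The ages did not overlap for Ifngr2, as for 16.2% of detected probes with aged hearts lower.

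H2-Q7, a class I histocompatibility gene and a known interferon target, was measured on 10 replicated spots outside the table that gave the calls. It was named after its values were seen. With each array scaled to its 75th percentile, it was 11.18, 11.39, 10.94, 11.32 and 11.07 in young hearts and 9.94, 9.65, 9.77, 11.36 and 10.95 in aged hearts. Aged hearts 1 to 3 lay far below the young values, and aged hearts 4 and 5 lay within them, whereas for Cxcl9 only aged heart 4 did. Having been picked from 46 genes with such spots for its likeness to Cxcl9, H2-Q7 is a description and no independent support. Aged hearts 4 and 5 held the 2 highest aged values for 14 of these 46 genes and for 23.8% of the 16720 detected mRNA probes, so this order is not particular to Cxcl9 or to interferon-induced genes. Cav2, a caveolin, was 9.49, 8.98, 10.27 and 10.02 in aged hearts 1, 2, 4 and 5, and Cep41, a centrosomal protein, was 5.28, 4.94, 6.04 and 5.74.

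Some control spots moved with Cxcl9 and others did not. The array reads some transcripts at the 3' end and at the 5' end, and the log2 ratio of these signals rises when labelled RNA holds more of the 3' end. The rat and human controls are named for other species, and how they bind mouse RNA was not tested. For the rat GAPDH control the ratio was -0.04, 0.07, 0.12, 0.13 and 0.28 in young hearts and 0.90, 0.99, 0.28 and 0.37 in aged hearts 1, 2, 4 and 5, with the highest ratio in aged heart 3. It was higher in aged hearts (0.81 ± 0.50 against 0.11 ± 0.12, SD, n = 5; exact permutation test, two-sided, p = 0.0159, adjusted p = 0.0265 over 5 controls). A sixth control, human PGK1, was left out of these 5 because not both of its ends were above background on all arrays, and its ratio was 10.43 in aged and 8.87 in young hearts. For mouse GAPDH it was 2.59 ± 0.30 in aged and 1.98 ± 0.25 in young hearts (SD, n = 5; exact permutation p = 0.00794, adjusted p = 0.0198), where the raw p is the smallest that 5 against 5 hearts can give. Aged hearts 4 and 5, with the highest Cxcl9 signal, had the lowest rat and mouse GAPDH ratios of the aged hearts. The mouse PGK1 ratio was also higher in aged hearts (exact permutation p = 0.00794, adjusted p = 0.0198), without aged hearts 4 and 5 standing apart. The human GAPDH ratio (exact permutation p = 0.246) and the rat PGK1 ratio (p = 0.452) gave no age difference past the threshold. Young hearts 1 and 2, scanned apart from the others, had rat PGK1 ratios of 0.32 and 0.27 against 2.33 to 3.35 in young hearts 3 to 5. Among the 3 young and 5 aged hearts scanned together, chosen as a subset after seeing the data, the age difference was 0.63 for rat GAPDH (exact permutation p = 0.0714, adjusted p = 0.119). It was 0.44 for mouse GAPDH and 0.68 for mouse PGK1 (exact permutation p = 0.0357 each, the smallest that 3 against 5 can give, adjusted p = 0.0893). There it was 0.10 for human GAPDH and turned to -0.53 for rat PGK1 (exact permutation adjusted p = 0.5 and 0.223). With 3 against 5 hearts a control could pass after adjustment over 5 only if at least 4 reached that smallest p, so the lack of a pass there says little. Over all hearts the rat GAPDH difference lost significance without any 1 of 8 arrays (adjusted p = 0.0529). For human GAPDH and rat PGK1, aged hearts 4 and 5 had the highest ratios of the aged hearts, 3.46 and 3.31 for human GAPDH and 2.65 and 3.04 for rat PGK1, unlike rat and mouse GAPDH.

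With the rat GAPDH ratio as a covariate, the age difference of Cxcl9 was -0.33 (SE 0.42), and with the mouse GAPDH ratio it was -0.73 (SE 0.65). The difference of Ccl8 was 4.07 (SE 0.71) with the rat ratio, and that of Cxcl13 was 3.80 (SE 2.22). The part of the control ratios in the Cxcl9 result was not tested, and age and the ratios moved together over these 10 hearts.

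**Figure D3:**
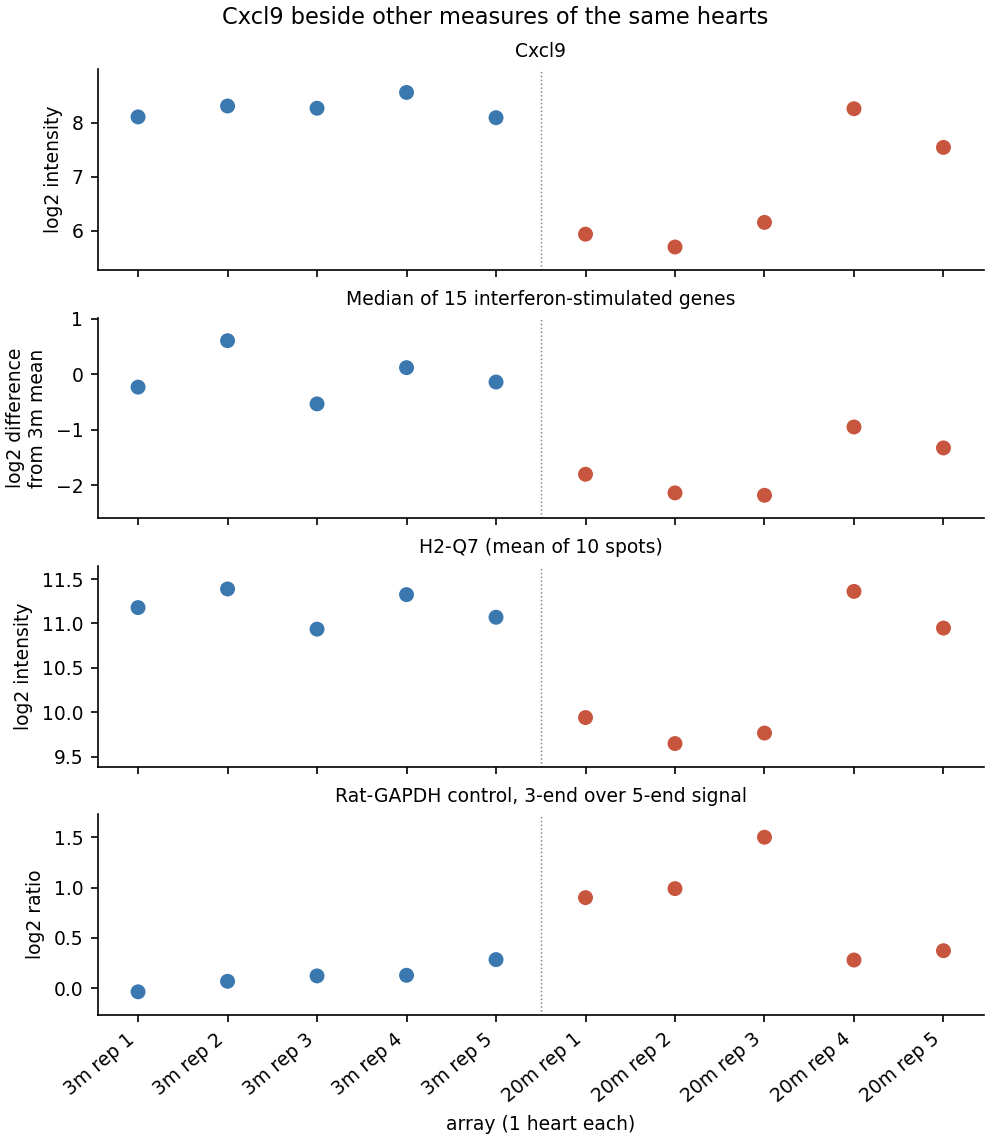
From the top, for each heart (x axis): Cxcl9 log2 normalized intensity, the median log2 difference from the young mean over 15 interferon-stimulated genes, H2-Q7 log2 intensity as the mean of 10 spots, and the log2 ratio of 3-end over 5-end signal of the rat GAPDH control. Blue points are 3m and red points are 20m hearts, and the y axes do not start at 0. Aged hearts 4 and 5 are the highest aged hearts in the upper 3 panels and the lowest in the bottom panel.

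Of the receptors that chemokines act on, 1 of the 25 listed had a named probe. Cxcr2, the receptor through which neutrophils follow other CXC chemokines, was 6.42, 6.65, 5.49, 6.86 and 7.83 in young and 8.88, 9.87, 9.23, 9.43 and 9.31 in aged hearts. The difference was 2.69 (SE 0.35) and the ages did not overlap, as for 8.28% of detected probes with aged hearts higher, and Cxcr2 has a name here only because it was listed for its age difference. Young heart 5, with its high Cxcl13, was the highest young heart for Cxcr2 too. It was the lowest young heart for the myeloid markers Chil3 and Vsig4, given below. Cxcr5 and Cxcr3, the receptors for Cxcl13 and Cxcl9, had no named probe and were not analysed here. Of the chemokine ligands, 2 of 16 in the CXC and CX3C list and 1 of 25 in the CC and XC list had a named probe, which were the 3 described here. None of the 19 genes of lymphotoxin and non-canonical NF-kB signalling had one.

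Markers of leukocytes were available for few cell types. Of 10 monocyte and neutrophil markers, 3 had a named probe (Cxcr2, Chil3 and S100a8) and all 3 were called higher in aged hearts, against 4.01% of detected mRNA probes. These genes have a name here only because they were listed for their age difference, as Vsig4 was, so nothing is read from the count. Their summed intensity was 55.7 to 248 in young and 550 to 1078 in aged hearts, carried mostly by Cxcr2. S100a8 was 2.85, 2.34, 2.45, 2.49 and 3.95 in young hearts and 5.17, 6.27, 5.74, 4.85 and 5.63 in aged hearts, and young heart 5 held the highest young value. Both S100a8 and Chil3, a chitinase-like protein of myeloid cells, were well above background in 1 of 5 young hearts. Unlike S100a8, Chil3 had its lowest young value in young heart 5, 2.32, at the floor. Of 12 resident macrophage markers, Vsig4 alone was named, at 3.07 to 4.95 in young and 5.30 to 7.15 in aged hearts, a difference of 2.25 (SE 0.39). Aged heart 2, with the lowest aged Ccl8 signal, also had the lowest aged Vsig4. The highest aged Vsig4 was in heart 1, and the highest aged Ccl8 in heart 5. Among young hearts, Vsig4 was highest in heart 2, which had the lowest young Ccl8, and lowest in heart 5.

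Of 12 B cell markers, Ebf1, a transcription factor of B cells and some stromal cells, was named and lower in aged hearts by -1.37 (SE 0.20). Cd28, a T cell costimulatory receptor and 1 of 12 T and NK cell markers, was lower by -1.39 (SE 0.26). Mzb1, a gene of B and plasma cells on replicated spots, named after its values were seen, was 5.82 to 6.53 in young and 5.90 to 6.63 in aged hearts, which overlapped. Of 8 endothelial markers, 4 were named (Esm1, Aplnr, Tek and Car4). All 4 were called lower in aged hearts, against 9.65% of detected mRNA probes, but like Ebf1 and Cd28 they were named from the list of lower probes, which fixed the direction. They had a summed intensity of 1064 to 4257 in young and 375 to 705 in aged hearts, and in young heart 2, with the highest sum, Car4 at 11.62 made up most of it. Tek was not well above background in any aged heart. No marker of dendritic cells, fibroblasts or erythroid cells had a named probe, and the part of any cell type in the ligand signals was not tested.

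**Figure D4:**
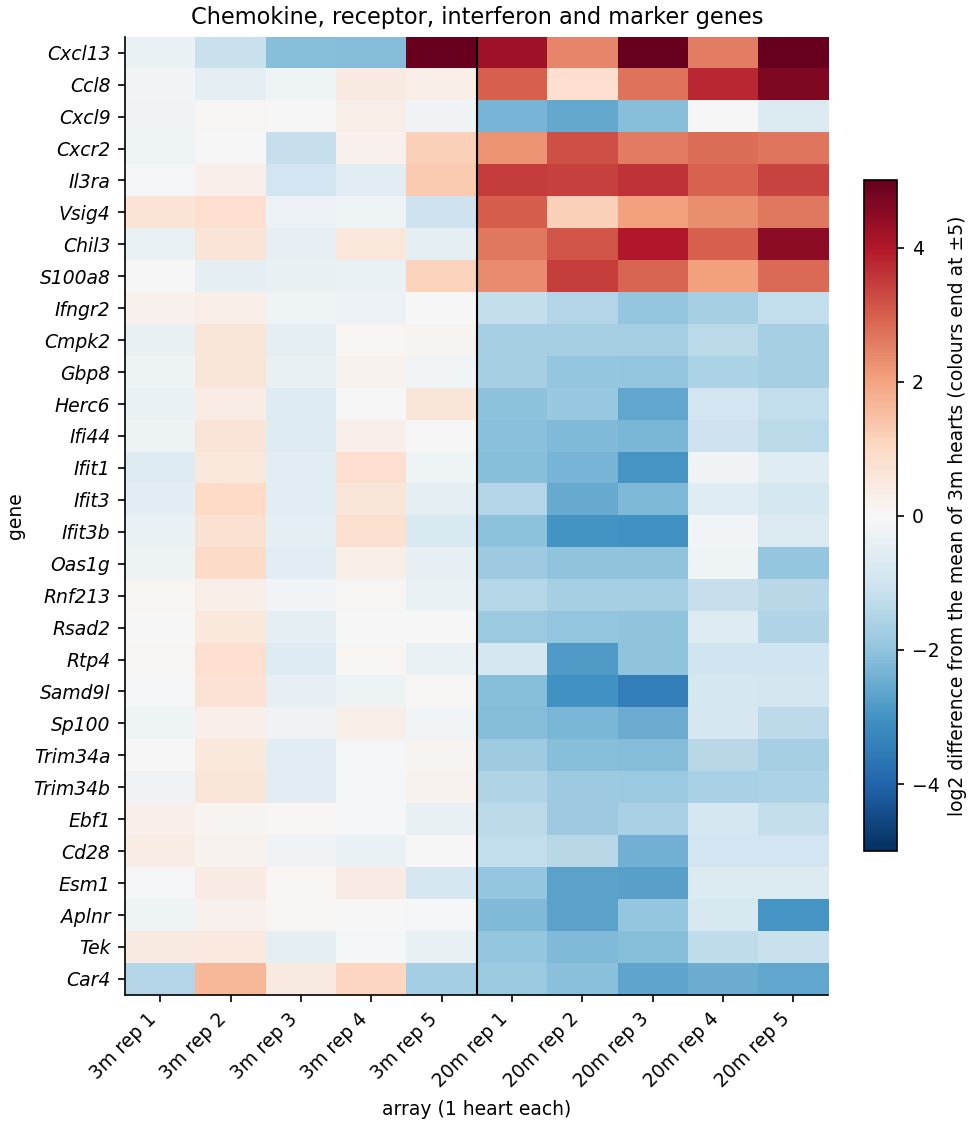
Log2 difference from the mean of the 5 young hearts for each heart (columns, 3m left and 20m right of the line) and gene (rows). Red is higher and blue lower, with colours ending at 5 in either direction. Cxcl13 is red in young heart 5, and many interferon-stimulated genes are paler in aged hearts 4 and 5, as is Cxcl9.

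**Figure D5:**
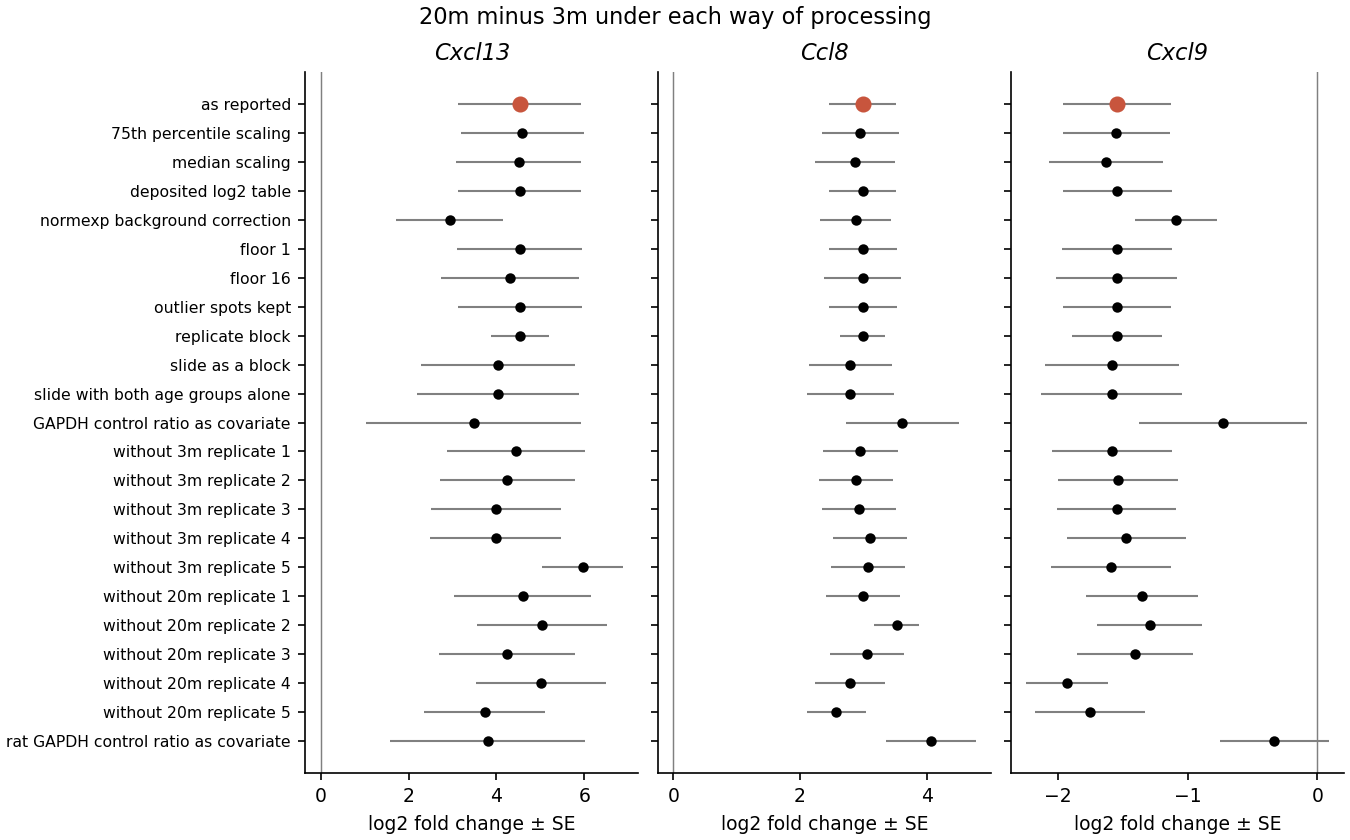
Difference of aged minus young hearts in log2 intensity (points) with the SE of the fit (bars) for each way of processing. The coloured point is the value reported. Cxcl13 varies from 2.93 to 5.97, Ccl8 from 2.58 to 4.07 and Cxcl9 from -1.93 to -0.33, and no point changes sign.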

How the data were processed

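The authors deposited scanner output with background-subtracted intensity per spot (Agilent Feature Extraction, whose version differs between headers, methods and labels; kit names also differ) and a table of log2 values. The authors made the deposited log2 table by background correction and quantile normalization, per the methods. From the intensities, outlier spots were set to missing, quantile normalization was run over 60641 probes, values under 5 were raised to 5, and log2 was taken. The 16720 mRNA probes that at least 5 of the 10 arrays flagged as well above background were fitted by age with limma 3.58.1 in R 4.3.3 (Benjamini-Hochberg, adjusted p under 0.05, log2 difference of at least 1). Columns of the authors' own comparisons in the supplementary tables were used to identify probes only: 118 entries each matched 1 probe by p-value and fold within 0.002 on the log scale, Cxcl13 and Ccl8 among them, and a second sheet listed 690 probes by gene, with Cxcl9, of which 73 were among the 118, giving 735 named probes. Strands came from these tables, gene positions from a RefSeq gene table, and upstream sequences from a RefSeq promoter table (GRCm38.p6). Probes were not aligned to a genome.

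The members and gene lists were chosen with earlier results of these data known. Genes named were the members, every listed gene with a named probe and, per member, the 3 named probes most correlated over deviations from the age means. Hspb7, H2-Q7, Mzb1, Cav2 and Cep41 were added outside this rule, from the 46 genes on replicated spots. Control ratios were compared by exact permutation over 252 assignments. On simulated data for this comparison with 200 of 16720 probes changed, 193 were called, with 2 false calls. The 75th percentile of intensity was 129 to 209 in young and 109 to 144 in aged arrays, no spot was saturated, and 67.5% ± 4.53 against 65.9% ± 1.33 of probes (SD, n = 5) were well above background. The small number of arrays limits the precision. Young arrays 1 and 2 were scanned apart from the other 8. Slides were inferred from scan times, and some array positions occurred in both scans. Plots used matplotlib 3.10.9, and tables used pandas 2.3.3 and scipy 1.17.1 under Python 3.11.15. Alternatives covered scaling, background correction, floor, filter, flagged spots, test, fold limit, replicate number, slide, control ratios and each array left out. The rat GAPDH covariate and the alternatives for the control ratios were chosen after seeing the data.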

Additional observations from a re-analysis of the deposited data

Results flagged for a closer look

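In 3 of the 86 sets of 5 hearts examined, 1 heart stood far from the others, with the gap to its nearest neighbour over the whole range above 0.71. Chance alone gives such a gap in about 1 in 20 sets. Cxcl13 in young heart 5 had a gap of 0.769 of the range. Oas1g in aged heart 4 had a gap of 0.881, at 4.14 against 2.32 to 2.54 in the other aged hearts, of which none was well above background and some were at the floor. Cmpk2 in aged heart 4 had a gap of 1, since the other 4 aged hearts were at the floor, and none of its aged values was well above background.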

How the results depend on the processing

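No alternative changed the sign of a chemokine ligand's age difference. Ccl8 passed the limits of the fit in all 22 alternatives run for single genes, Cxcl9 in 19 and Cxcl13 in 10. Over the arrays left out in turn, Cxcl13 ran from 3.73 to 5.97 and passed in 4 of 10 (not without young array 1, 2, 3 or 4 or aged array 3 or 5), Ccl8 from 2.58 to 3.53 and Cxcl9 from -1.93 to -1.29, and the count of probes called from 1939 to 2627. On the slide with both ages alone neither Cxcl13 nor Cxcl9 passed. The mouse GAPDH covariate moved Cxcl9 to -0.73, and the rat GAPDH covariate moved it to -0.33 and Ccl8 to 4.07. The count of called probes, 2283 as reported, was 794 with normexp, 5855 without a fold limit, 1081 with the mouse and 1284 with the rat GAPDH covariate. The share called lower was 70.7% as reported and 49.6% with the mouse covariate. The cause of these shifts was not tested, except that dropping the fold limit calls more by construction. Under median scaling the median of all probes was -0.11 lower in aged hearts. Same-numbered arrays share only a number: pair correlations were 0.228, -0.0864, 0.243, 0.005 and -0.365, and 2 of 10 arrays matched best with their own number. With the replicate block the count was 2281. Each number occurs once in each age, so the block cannot move the ligand differences of 4.53, 2.99 and -1.55. On the slide with both ages alone, chosen for the control ratios after seeing the data, their age differences were 0.44 for mouse GAPDH, 0.68 for mouse PGK1 and 0.63 for rat GAPDH, none past the threshold, which 3 against 5 arrays could hardly reach, and -0.53 for rat PGK1, against 0.54 over all arrays. With single arrays left out, rat GAPDH ran from 0.52 to 0.83 and passed only without aged array 4 or young array 5.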
